A study of Cicer arietinum with 5 samples.

Results

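The interior of chickpea chromosome Ca8 was described along its length, leaving out the outer 2 Mb at each end. It comprised 124 of the 3475 bins of 100 kb on the 8 chromosomes, from base 2000001 to base 14400000 of the kabuli genome version 1, and 651484 of the 40604870 cytosines listed as methylated in any library. Ca8 was chosen by its CHG change between the seed stages, so every difference between the stages given below is a description without a test. The limits of the interior were set by distance alone. In the 1 Mb just inside them the CHG change was -4.47 percentage points at the start and -4.18 points at the end, and in the 1 Mb just outside it was -3.19 points at the start and -3.99 points at the end. Over the whole outer 2 Mb at both ends it was -3.98 points, against -3.83 points in the interior.

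Methylomes were obtained by whole genome bisulphite sequencing of field-grown seeds of Himchana 1, a small-seeded cultivar. Seeds at mid-maturation (S5, 3 libraries) were compared with seeds at late-embryogenesis (S3, 2 libraries), each library coming from a pool of whole seeds. In chickpea the endosperm is resorbed before mid-maturation, so the stages differ in tissue, and a change within a tissue and a change in tissue make-up cannot be told apart. Bisulphite turns unmethylated cytosine into uracil, so the methylation level of a cytosine is the percent of its reads that still show C. Only cytosines called methylated by the authors, with at least 5 reads, are listed in the data.

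In plants, CG methylation is copied at replication by MET1, which recognises the hemimethylated site. CHG methylation (H is A, C or T) is kept by CMT3, which is recruited to histone H3 methylated at lysine 9, and CHH methylation is laid down by DRM2 under the guidance of small RNAs and by CMT2 in heterochromatin. Transposon-rich heterochromatin around centromeres carries all of these, whereas the bodies of expressed genes often carry CG methylation alone. These roles are known mainly from Arabidopsis.

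Context was inferred from the lists. A cytosine with a listed partner on the opposite strand 1 base downstream was taken as CG, and one with a partner 2 bases downstream as CHG. The rest is called asymmetric here; besides CHH it includes any CG or CHG cytosine with a partner that no library listed. Levels were compared at cytosines listed in all 5 libraries, of which the Ca8 interior had 86262 in CG, 43840 in CHG and 72365 in asymmetric context. A cytosine that lost or gained almost all its methylation is missing from one stage, so these comparisons leave out the largest changes. An unlisted cytosine may be unmethylated or too shallow, and these cannot be told apart.

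Ca8 was sparse in methylcytosines. The union of the libraries held 5254 listed cytosines per 100 kb of Ca8 interior, against 7189 on the interiors of Ca1 to Ca7. CHG was the context most reduced, with 686 per 100 kb on Ca8 against 1120 on Ca1 to Ca7. CG had 1212 per 100 kb on Ca8 against 1428 on Ca1 to Ca7, and asymmetric context had 3356 against 4640. Thus Ca8 had 1.77 CG cytosines for each CHG cytosine and Ca1 to Ca7 had 1.28. Per 100 kb of Ca8, 3429, 3631 and 3092 methylcytosines were listed in S5 replicates 1, 2 and 3, and 2878 and 3116 in S3 replicates 1 and 2. The stages overlapped in this number. In asymmetric context alone they did not, with 1902, 2015 and 1707 per 100 kb in the S5 libraries against 1431 and 1574 in the S3 libraries. S5 replicate 2, the shallowest library with a median of 12 reads per listed cytosine over the whole genome, listed the most methylcytosines on Ca8, while on Ca1 to Ca7 S5 replicate 1 listed the most.

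Within every library, Ca8 differed from Ca1 to Ca7 in the same direction in each of 4 measures. Listed methylcytosines were fewer on Ca8 by 1309 ± 114 per 100 kb (SD, n = 5), and the Ca8 value was the lower in 5 of 5 libraries. The mean difference in CHG level (Ca8 minus Ca1 to Ca7) was -1.92 ± 0.513 points and that in CG level was -0.43 ± 0.0638 points, again with Ca8 lower in 5 of 5 libraries. Each SD is over the libraries of both stages. In CHG the difference was -2.29, -2.44 and -2.13 points in the S5 libraries and -1.38 and -1.37 points in the S3 libraries. The SD in CHG thus includes the difference between the stages. The asymmetric level was higher on Ca8 in 5 of 5 libraries, by 0.883 ± 0.362 points. The same direction in all libraries was not particular to Ca8. Set against the other chromosomes, Ca1 also kept its direction in CG, CHG and asymmetric level. Ca4 was higher in asymmetric level in every library, by 0.53 to 0.62 points, but changed direction between libraries in CHG. The differences of Ca8 are given as a description, since Ca8 was chosen from the same levels. A two-sided exact sign-flip permutation test over 5 libraries cannot go below p = 0.0625 and would not reach the conventional threshold whatever the values.

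The CHG level of Ca8 was lower at mid-maturation. It was 83.4%, 82.4% and 84.4% in S5 replicates 1, 2 and 3, against 87.4% and 87.0% in S3 replicates 1 and 2. The groups did not overlap, and the means were 83.4% ± 0.971 (SD, n = 3) in S5 and 87.2% ± 0.246 (SD, n = 2) in S3, a difference of -3.83 points. On Ca1 to Ca7 the means were 85.7% ± 0.816 in S5 and 88.6% ± 0.252 in S3, a difference of -2.92 points. Both strands of Ca8 showed it, at -3.88 points on the forward and -3.78 points on the reverse strand.

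Fewer CHG cytosines were in the highest level class at mid-maturation, and more were in the lowest. On Ca8, CHG cytosines at 90% or more made up 48.2%, 44.8% and 50.7% of the total in the S5 libraries, against 57.8% and 56.8% in the S3 libraries. Those under 50% made up 6.41%, 7.19% and 5.58% in the S5 libraries, against 3.48% and 3.44% in the S3 libraries. The stages did not overlap in either class. On Ca1 to Ca7 the class under 50% averaged 4.14% in S5 and 2.34% in S3, a smaller difference (1.80 points) than on Ca8 (2.94 points).

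CHG cytosines followed by a listed cytosine on the same strand, that is CCG sites, had low CHG levels at both stages. The 4346 CCG cytosines of Ca8 averaged 65.7% in S5 and 69.6% in S3, whereas the other 39494 CHG cytosines averaged 85.3% in S5 and 89.2% in S3. The differences between the stages were nearly the same, -3.93 points in CCG and -3.82 points in the others. On Ca1 to Ca7 they were -3.62 points in CCG and -2.84 points in the others, and whether Ca8 departed more in one kind of site was not tested.

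In the opposite direction, the asymmetric level of Ca8 was higher at mid-maturation. It was 56.0%, 53.5% and 57.9% in S5 replicates 1, 2 and 3, against 52.1% and 50.8% in S3 replicates 1 and 2, without overlap. The means of 55.8% ± 2.25 (SD, n = 3) in S5 and 51.4% ± 0.918 (SD, n = 2) in S3 differed by 4.35 points, against 4.47 points on Ca1 to Ca7. CG hardly moved, with 93.1%, 92.8% and 93.3% in the S5 libraries and 92.9% and 92.7% in the S3 libraries, a difference of 0.29 points in which the stages overlapped.

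**Figure D1:**
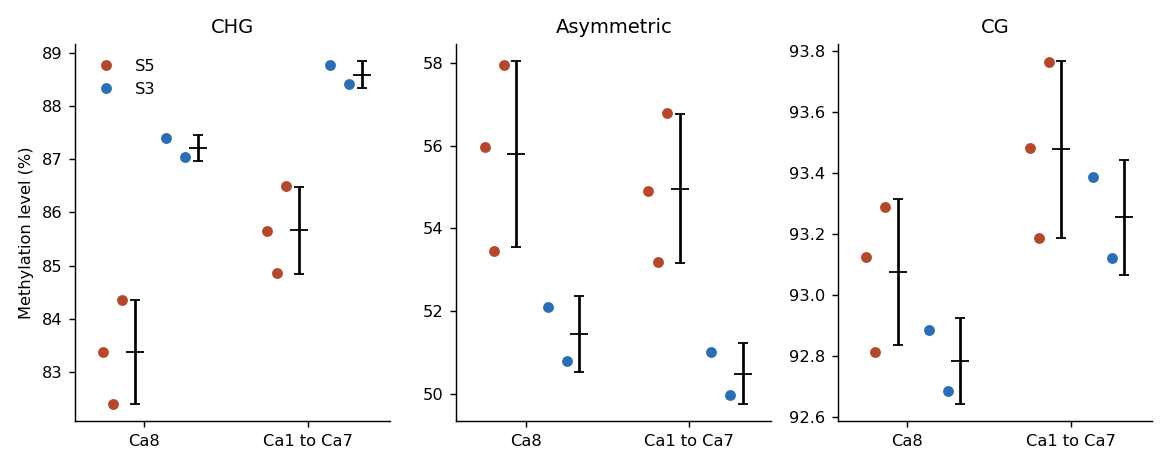
Methylation level (%) of the Ca8 interior and of the interiors of Ca1 to Ca7 in CHG, asymmetric and CG context, at cytosines listed in all 5 libraries. Each point is a library (S5 left, S3 right), the black marks are means ± SD, and the axes do not start at 0. On Ca8 the S5 libraries lie at 82.4% to 84.4% in CHG, all below the S3 libraries at 87.0% and 87.4%.

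Some cytosines were listed at one stage only. Of the 85018 CHG cytosines of Ca8 in the union, 700 (0.823%) were listed in all 3 S5 libraries and in no S3 library, and 1140 (1.34%) in both S3 libraries and in no S5 library. On Ca1 to Ca7 these shares were 0.644% and 1.08%, so that on Ca8 both were the higher. In asymmetric context of Ca8, 2.82% were listed in all S5 libraries and in no S3 library, and 1.22% in both S3 libraries and in no S5 library, against 2.39% and 1.27% on Ca1 to Ca7. A run of 3 libraries and a run of 2 are not equally likely at the same depth, so the shares of 1 direction are to be read against the same share on Ca1 to Ca7.

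Along the chromosome the density of methylcytosines was uneven, from 2339 per bin (3200001 to 3300000) and 2360 per bin (2200001 to 2300000) to 12185 per bin (13100001 to 13200000). It was lowest in the first Mb of the interior, with 3727 per bin, and highest from 13000001 to 14000000, with 7766 per bin. The densest run of 20 bins lay at 11800001 to 13800000, close to one end, and held 7318 listed cytosines per bin and 1.29 CG cytosines for each CHG cytosine. The sparsest run of 20 bins, at 2100001 to 4100000, held 3680 per bin and 2.77 CG cytosines for each CHG cytosine. Relative to CHG, listed CG cytosines were thus more numerous in the sparse than in the dense run. No gene or transposon annotation of this genome version was used here, so the bins are given without their genes.

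The CHG difference was present along the whole interior. It was negative in 113 of 113 bins with at least 100 shared CHG cytosines (11 bins had fewer), with a median of -3.69 points and a range of -12.2 to -1.54 points. The groups did not overlap, with every S5 library lower, in 110 of the 113 bins (97.3%). Over the interiors of all 8 chromosomes this held for 98.6% of 2952 bins, so the share on Ca8 was close to the background. On Ca1 to Ca7 the difference was likewise negative in 2839 of 2839 bins, with a median of -3.00 points.

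In 1 Mb steps, the CHG level was lower at S5 without overlap in 12 of 12 whole segments. Among these the difference was greatest at 6000001 to 7000000, where S5 libraries had 82.3%, 80.9% and 83.3% and S3 libraries had 87.6% and 87.3% (-5.27 points). It was smallest at 11000001 to 12000000, where S5 libraries had 84.4%, 83.3% and 85.2% and S3 libraries had 87.4% and 87.3% (-3.02 points). The dense block differed by -3.38 points, the 98 bins before it by -3.97 points and the sparsest run by -4.51 points. The 6 bins after the dense block, with 5165 listed cytosines per bin against 4838 before it, differed by -4.83 points, so the differences did not follow density in every stretch. In the last 4 bins, from 14000001 to 14400000, S5 libraries had 79.2%, 78.3% and 80.7% and S3 libraries had 85.1% and 84.7% (-5.49 points), more than in any whole segment.

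In asymmetric context the difference was positive in 123 of 124 bins, with a median of 4.53 points and a range of -0.35 to 8.41 points. On Ca1 to Ca7 it was positive in 3002 of 3017 bins and negative in 15. Every S5 library was higher than every S3 library in 89 of 124 bins of Ca8 (71.8%), against a background of 87.5% over all interior bins. The count rested on S5 replicate 2, the shallowest library. Without it, it was 122 of 124 bins on Ca8 (98.4%) and 98.9% over all interior bins, and without S3 replicate 1 it was 109 of 124 (87.9%) against 95.9%. All 12 whole segments were higher at S5 without overlap, by 3.32 points (6000001 to 7000000) to 5.99 points (3000001 to 4000000). Of the whole segments, the one with the greatest CHG difference was thus the one with the smallest asymmetric difference. In the last 4 bins the asymmetric level was 53.2%, 51.0% and 55.1% in the S5 libraries against 51.2% and 50.4% in the S3 libraries (2.32 points), and the stages overlapped.

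In CG, every S5 library was higher in 36 of 124 bins (29.0%; background 25.4%) and lower in 5 of 124 (4.03%; background 4.23%), with bin differences from -1.10 to 2.04 points. Both shares were close to the background.

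**Figure D2:**
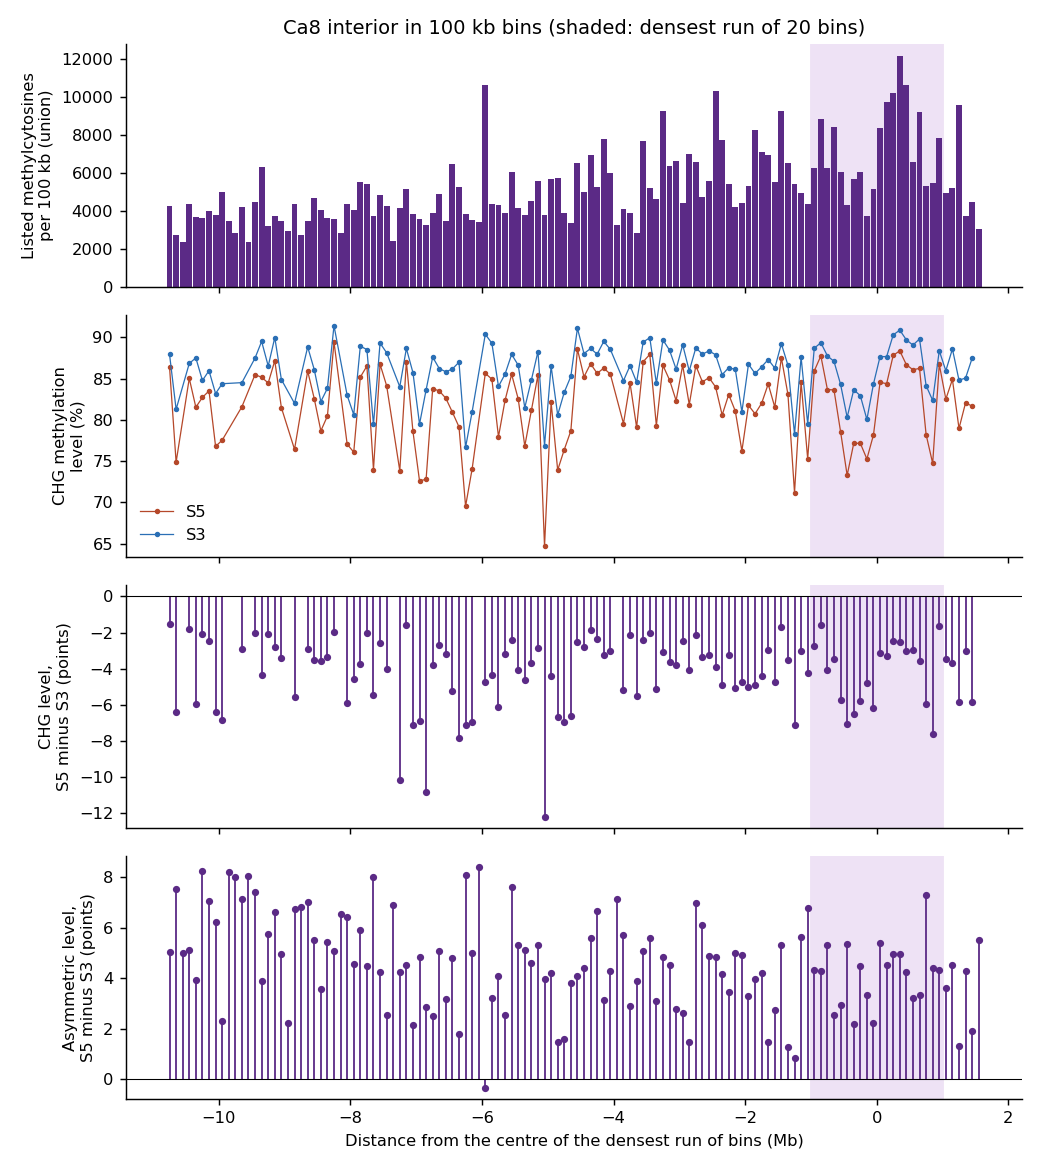
The Ca8 interior in bins of 100 kb, against distance (Mb) from the centre of the densest run of 20 bins (shaded). From top to bottom are the listed methylcytosines per bin, the mean CHG level (%) in S5 and S3 libraries, and the differences S5 minus S3 in CHG and in asymmetric level (points), for bins with at least 100 shared cytosines. The CHG difference is below 0 in all 113 bins and the asymmetric difference is above 0 in 123 of 124.

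Denser bins tended to have the smaller CHG difference. Across the 113 bins of Ca8, Pearson's r between density and CHG difference was 0.28 (Spearman's rho 0.24), against 0.47 (rho 0.46) across 2839 bins of Ca1 to Ca7. The CHG level at S3 went with the CHG difference at r = 0.67 (rho 0.69) on Ca8 and 0.66 (rho 0.61) on Ca1 to Ca7. These points share the same libraries, neighbouring bins are not independent, and the S3 level is part of the difference, so the values are descriptions.

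Since Ca8 was sparse, its change was set against that of Ca1 to Ca7 at equal density. Bins of Ca1 to Ca7 were divided into 10 density classes of equal number, and their class values were weighted by the Ca8 cytosines in each class. Of the 124 Ca8 bins, 106 fell in the 5 sparsest classes. At equal density Ca1 to Ca7 changed by -3.41 points, which left a gap of -0.42 points for Ca8, compared with -0.92 points before. In single libraries, the Ca8 level minus the density-weighted level of Ca1 to Ca7 was -0.85, -0.89 and -0.78 points in S5 replicates 1, 2 and 3, against -0.45 and -0.38 points in S3 replicates 1 and 2, without overlap of the stages. Ca8 thus lay below at both stages and farther below at S5. The size of the gap depended on the setting, with -0.89 points at a coverage of 20 or more reads and -0.75 points with density counted in windows of 1 kb.

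The CHG difference of Ca8 was the lower in 9 of 10 density classes. In class 1, the sparsest (22 bins), it was -5.58 points on Ca8 against -4.93 points on Ca1 to Ca7. In class 4 (17 bins) it was -4.58 points against -3.47 points. In class 2, which held the most Ca8 bins (34), Ca8 minus Ca1 to Ca7 was only -0.17 points. This value was also small in classes 3 and 5 (19 and 14 bins), at -0.10 and -0.20 points. It was -0.39, -0.56 and -0.87 points in classes 7, 8 and 9 (4, 5 and 4 bins), and -0.06 points in class 10 (1 bin). In class 6 (4 bins) Ca8 changed less, by -2.99 points against -3.08 points. The asymmetric difference of Ca8 was also the lower in 7 of 10 classes, with a gap of -0.31 points at equal density, which was -0.84 points at a coverage of 20 or more reads and -0.0609 points with windows of 1 kb.

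At equal density the asymmetric level itself was lower on Ca8 in every library, with differences of -0.71, -0.92 and -0.77 points in the S5 libraries and -0.42 and -0.55 points in the S3 libraries, although without regard to density it was higher. The order of Ca8 and Ca1 to Ca7 in asymmetric level therefore depended on whether density was considered.

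**Figure D3:**
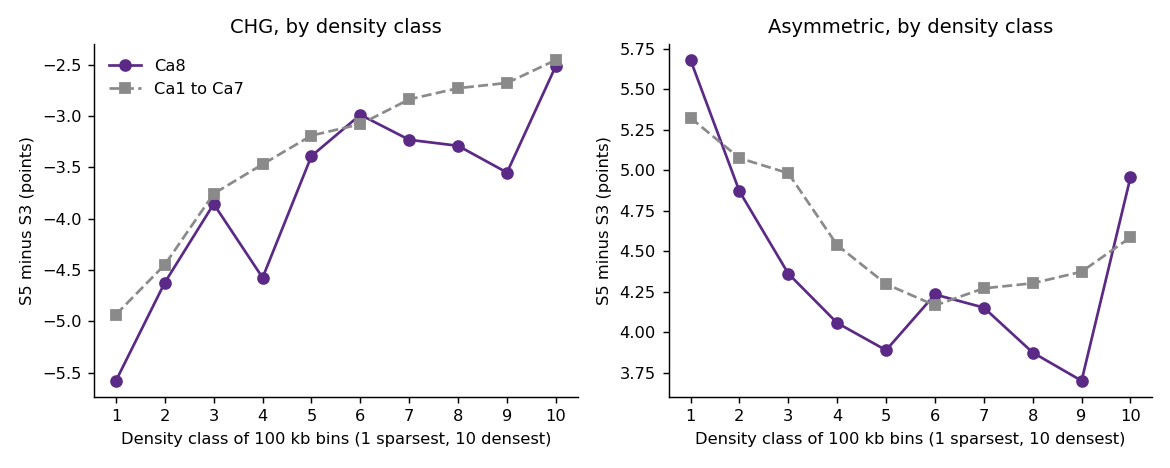
Difference S5 minus S3 (points) in CHG (left) and asymmetric (right) level by density class of 100 kb bins, from the sparsest (1) to the densest (10), for Ca8 (circles) and Ca1 to Ca7 (squares). On Ca8 the classes hold between 34 bins and 1 bin, the CHG difference runs from -5.58 points in class 1 to -2.51 points in class 10, and the axes do not start at 0.

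The same calculation for each chromosome against the others gave CHG gaps between -0.15 points (Ca6) and 0.09 points (Ca7). Those chromosomes are longer than Ca8, and a longer stretch averages over more bins. From the start of each of their interiors, consecutive stretches of 124 bins, the length of Ca8, were therefore also cut, 20 in all. The bins left over at the far end of each interior were in no stretch. The gaps of these stretches ranged from -0.29 to 0.27 points in CHG, with a median of -0.03 points, and from -0.16 to 0.38 points in asymmetric context. The values of Ca8, -0.42 and -0.31 points, lay below all 20 in both contexts. Before density was considered, 2 of the 20 stretches had a more negative CHG difference than Ca8, the lowest of them -4.41 points, and 5 were sparser. Ca8 was picked as the chromosome with the most negative CHG difference, so its place at the end of this range is not independent of the choice.

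**Figure D4:**
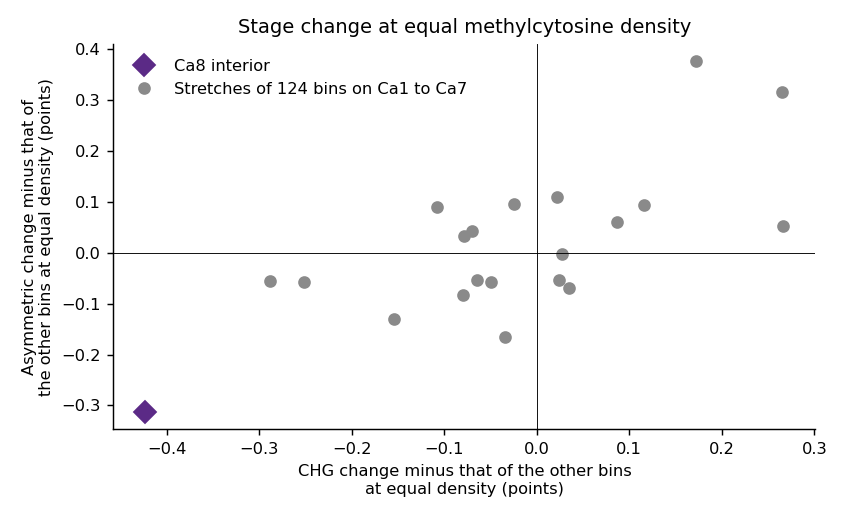
Difference S5 minus S3 less that of the other bins at equal density (points), in CHG (horizontal) and asymmetric context (vertical), for the Ca8 interior (diamond) and for 20 stretches of 124 bins on Ca1 to Ca7 (circles). Ca8 lies at -0.42 points in CHG and -0.31 points in asymmetric context, and the lowest stretches at -0.29 and -0.16 points.

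Bins of Ca8 lay on both sides of the value of Ca1 to Ca7 in their density class. Of the 113 bins, 61 lay below and 52 above it, with a median difference of -0.27 points. The same count was not made for bins of Ca1 to Ca7, so these numbers have no background and are not a trait of Ca8. The 14 bins that added most to the gap summed to all of it, the other bins cancelling each other. With bins on both sides, a few extreme bins can reach the sum however the gap is spread, so this number does not locate it. The bin at 6800001 to 6900000 added most (-0.0657 points), and without it the gap was -0.37 points.

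Among the 6 bins with at least 1000 shared CHG cytosines, the bin at 6800001 to 6900000 also had the greatest CHG difference. Its CHG level was 85.9%, 84.4% and 86.6% in S5 replicates 1, 2 and 3, against 90.6% and 90.2% in S3 replicates 1 and 2 (-4.74 points, 1398 cytosines). It was the only bin of Ca8 with a negative asymmetric difference, at 54.4%, 52.0% and 55.3% in the S5 libraries against 54.6% and 54.0% in the S3 libraries, which overlapped. Its CG level was 94.0%, 93.6% and 94.2% in the S5 libraries against 94.4% and 94.5% in the S3 libraries, lower at S5 without overlap. With 10611 listed cytosines in the union it was as dense as bins of the dense block, although the bins around it were sparse. The number listed was lower at S5 as well, with 7013, 6696 and 6266 in the S5 libraries and 6927 and 7464 in the S3 libraries, which overlapped.

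Inside this bin, 2 of the 10 windows of 10 kb had CHG differences beyond -10 points. From 6850001 to 6860000 the CHG level was 73.6%, 69.9% and 71.2% in the S5 libraries, against 86.2% and 83.6% in the S3 libraries (-13.3 points, 57 cytosines). All contexts were lower there, with -10.1 points in asymmetric (22 cytosines) and -3.07 points in CG (67 cytosines) context, each without overlap. From 6880001 to 6890000 CHG differed by -10.7 points and asymmetric by -5.65 points, and CG by -0.13 points. In the other 8 windows CHG differed by -7.46 to -2.85 points and asymmetric by -0.86 to 2.40 points. The mean depth of the CHG cytosines was 14.9 and 13.7 reads in the first and the second of these windows, and 14.2 to 16.0 reads in the other 8.

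**Figure D5:**
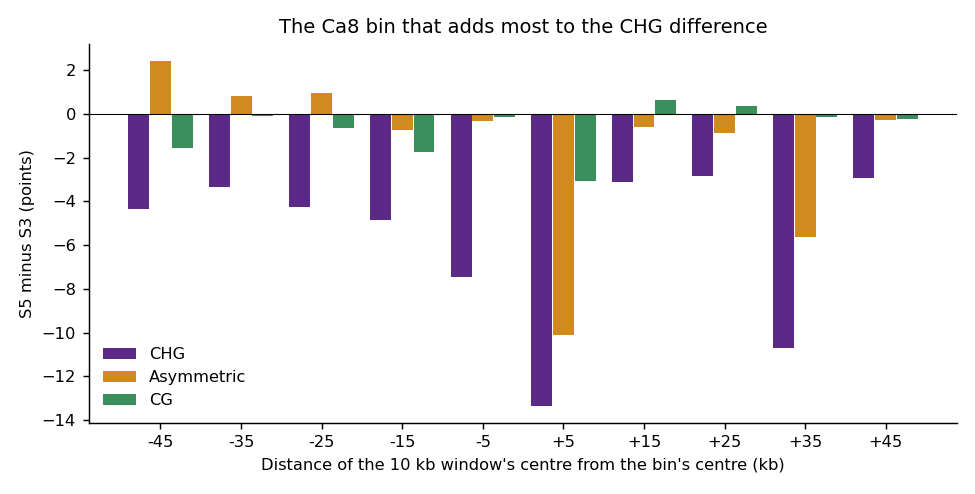
Difference S5 minus S3 (points) in CHG, asymmetric and CG level in the 10 windows of 10 kb of the bin at 6800001 to 6900000, against distance (kb) of the window's centre from the bin's centre. In the window at +5 kb all contexts are lower at S5 (-13.3, -10.1 and -3.07 points), and the window at +35 kb has the next greatest CHG difference (-10.7 points).

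The dense bins of the interior did not change alike in CHG. The densest, the bin at 13100001 to 13200000, had CHG levels of 89.0%, 87.3% and 88.8% in the S5 libraries, against 91.1% and 90.7% in the S3 libraries (-2.51 points). Its neighbours at 13000001 to 13100000 and 13200001 to 13300000 differed by -2.48 and -3.00 points. Asymmetric levels in these 3 bins were higher at S5 by 4.97, 4.96 and 4.24 points. By contrast, the bin at 10300001 to 10400000, with 10327 listed cytosines in the union, differed by -3.90 points in CHG and 4.84 points in asymmetric context, and the bin at 6800001 to 6900000 was among the 4 densest. In the densest class of bins on Ca1 to Ca7 the differences were -2.46 points in CHG and 4.59 points in asymmetric context.

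The greatest differences were in sparse bins with few CHG cytosines, which were named after their values were seen. The bin at 7700001 to 7800000 had CHG levels of 64.8%, 61.4% and 67.8% in the S5 libraries, against 76.3% and 77.5% in the S3 libraries (-12.2 points, 170 cytosines). Of these, 95 lay in the window from 7770001 to 7780000, which had 56.4%, 54.4% and 59.8% in the S5 libraries against 72.5% and 74.6% in the S3 libraries (-16.7 points). The mean depth of the CHG cytosines in that window was 49.1 reads, and its asymmetric level was low at both stages and lower at S5 (-5.64 points, 81 cytosines). The part of this depth in the values was not tested.

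Among windows of 10 kb with at least 20 shared CHG cytosines, every S5 library was lower in 425 of 563 on Ca8 (75.5%; background 73.5%). The median was -3.42 points on Ca8 and -2.82 points on Ca1 to Ca7. A difference of -10 points or beyond was seen in 44 of the 563 windows (7.82%) on Ca8 and in 586 of 19177 (3.06%) on Ca1 to Ca7. Neither the medians nor these shares were compared at equal density, and sparser bins tended to have the greater CHG difference. The 44 windows lay all along the chromosome, with 1 to 7 in each 1 Mb segment. The greatest difference was from 6790001 to 6800000, next to the bin described above, with 46.4%, 44.6% and 45.4% in the S5 libraries against 68.6% and 79.4% in the S3 libraries (-28.6 points, 39 cytosines). CG did not follow there (0.82 points).

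Windows with a lower asymmetric level at S5 were rare. Every S5 library was lower in asymmetric context in 13 of 826 windows on Ca8 (1.57%; background 1.08%). Both CHG and asymmetric levels were lower in this way in 10 of 524 windows on Ca8 (1.91%) and in 159 of 18556 on Ca1 to Ca7 (0.857%). These shares were not compared at equal density either. Of the 10 on Ca8, 3 had CHG cytosines with a mean depth of 45.2 to 74.0 reads, whereas the other 7 had 13.1 to 28.0 reads.

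Mean read depth was similar on Ca8 and elsewhere, but very deep CHG cytosines made up a larger share on Ca8. CHG cytosines of Ca8 had a mean of 18.7, 14.4 and 18.2 reads in S5 replicates 1, 2 and 3, and of 18.5 and 19.0 reads in S3 replicates 1 and 2. On Ca1 to Ca7 the means were 18.2, 13.2 and 18.1 reads in S5 and 18.4 and 18.7 reads in S3. Those with 50 to under 100 reads made up 1.72% on Ca8 and 0.994% on Ca1 to Ca7, and those with 100 or more 0.438% and 0.335%. The CHG difference of Ca8 was negative at every depth, from -3.46 points at cytosines with a mean of 5 to under 10 reads (7438 cytosines) to -4.43 points at those with 100 reads or more (192 cytosines). On Ca1 to Ca7 it was -2.81 points in the first of these classes and -1.95 points in the last. Ca8 and Ca1 to Ca7 thus lay farthest apart in CHG at the deepest cytosines, which made up 0.438% of the CHG cytosines on Ca8. The asymmetric difference of Ca8 was 3.67 points at a mean of 5 to under 10 reads, where the stages overlapped. It was 4.86 points at 10 to under 20 reads, 2.13 points at 50 to under 100 and 1.44 points at 100 or more. At 100 reads or more it was 3.20 points on Ca1 to Ca7.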

How the data were processed

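Per the methods of the study, the authors filtered reads in NGS QC Toolkit, aligned them with Bismark against kabuli chickpea version 1 and took the error rate of each sample from the chloroplast genome. A cytosine was called at a depth of 5 or more and a binomial p of 0.0001 or less. The submitters' processing notes name Bismark 0.14.3 and methylKit 0.9.2. Each deposited table gives, per called cytosine, a count of reads (coverage) and the percent of reads with C. Libraries listed 24562750 to 27777737 lines, with a median coverage of 12 to 14 reads, and replicates were deposited separately.

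Levels are means of the deposited percent over cytosines listed in all 5 libraries. Counts, ranges and correlations of bins of 100 kb used bins with at least 100 such cytosines. Levels of whole regions, density classes and gaps at equal density used all bins. Density is the number of cytosines listed in any library. Bins were named among those with at least 1000 shared CHG cytosines by largest and smallest differences and, over all bins, by density; windows of 10 kb needed 20 cytosines and were added after values were seen. Stages overlap when neither stage has all its libraries on one side of the other. Calculations used Python 3.11.15, numpy 2.4.6, pandas 2.3.3 and scipy 1.17.1, and the code was tested on simulated data. The chromosome, its limits and the measures were chosen with earlier results of these data known. Replicates are pools of seeds, which the methods of the study describe as independent biological replicates.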

Additional observations from a re-analysis of the deposited data

How the results depend on the processing

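The CHG and asymmetric differences of Ca8 kept their direction under every alternative tried, and so did the gaps to Ca1 to Ca7 at equal density. The CHG difference was -4.70 points from pooled reads, and the CG difference was 0.0638 points from pooled reads and 0.00224 points at cytosines listed in at least 1 library of each stage. The asymmetric difference of 4.35 points became 2.76 points at a coverage of 20 and 3.70 points from pooled reads. At cytosines listed in at least 1 library of each stage it was 3.21 points. The CHG gap of -0.42 points became -0.57 points at a coverage of 10, -0.89 points at 20, -0.79 points from pooled reads, -0.48 points with both dyad cytosines shared and -0.37 points for whole chromosomes. It was -0.37 points with the CHG level at S3 in place of density and, chosen after seeing the data, -0.75 points with density in 1 kb windows, -0.92 points without density classes and -0.37 points without the bin that added most. The asymmetric gap of -0.31 points became -0.43 points at a coverage of 10, -0.84 points at 20, -1.04 points from pooled reads, -0.19 points for whole chromosomes and -0.19 points with the S3 level, and, chosen after seeing the data, -0.0609 points with 1 kb windows and -0.12 points without classes. The causes were not tested. Bins with CHG lower in every S5 library numbered 110 of 113 (97.3%), and 25 of 25 with a minimum of 500 cytosines. At a coverage of 10 they numbered 67 of 68 (98.5%), and in bins of 200 kb 62 of 62. For asymmetric context the number was 89 of 124 (71.8%), and 47 of 65 (72.3%) with a minimum of 500. In bins of 50 kb it was 147 of 224 (65.6%), and in bins of 200 kb 46 of 62 (74.2%). Fewer or more bins were tested in these settings.

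Without each library in turn, the CHG difference ranged from -4.32 to -3.35 points, the asymmetric difference from 3.28 to 5.52 points and the CHG gap from -0.46 to -0.39 points. With replicate numbers 1 and 2 as a replicate block, the CHG difference was -4.32 points, the asymmetric difference 3.28 points, the CG difference 0.19 points, and the CHG and asymmetric gaps -0.45 and -0.33 points. The samples share only a number, and S5 replicate 3 is left out there. These values are the same as those without S5 replicate 3 and no block, so the block is not a further check.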
